A study of Zea mays with 6 samples.

Results

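A set of 100 leaf genes stood clearly higher in the edf1-D mutant of maize than in its wild type (WT), 0.534% of the expressed genes that were tested and 100 of the 44303 that are annotated. Leaves of field-grown plants were taken 25 days after germination and their RNA was sequenced in 3 WT and 3 edf1-D libraries. Both genotypes are in the W22 inbred background, so W22 is shared by all 6 libraries and the edf1-D allele is the labelled difference. The labels give no further allele, treatment or driver, and do not say whether a library came from 1 plant or from several. Values were read as FPKM, though no header states the unit. FPKM are sequenced fragments scaled to the length of the transcript and to the size of the library. Levels of different genes can then be compared.

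The genes were chosen from these same values. A gene qualified if it reached 0.5 FPKM in at least 3 libraries, had no value of 0 and averaged at least 5 FPKM in edf1-D. A further 817 genes were not eligible because of their place in the order of gene IDs, where they form 2 stretches. Among the 8776 genes that remained, the gap was taken as the lowest edf1-D value minus the highest WT value on the log2(FPKM + 1) scale. In 951 of them the gap was above 0, and the 100 genes with the largest gap were kept. That these genes are higher in edf1-D is therefore how they were found. Their differences between genotypes are given as descriptions, without tests. The libraries of the genotypes do not overlap in any of the 100 by the rule, beside 8.37% of all tested genes that were higher in edf1-D without overlap.

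A dominant allele, which the suffix D marks by convention in maize, can act through a product that is made in excess, in another place or in another form. A maize leaf holds mesophyll and bundle sheath cells that divide the work of C4 photosynthesis, beside epidermis and veins, and each cell type has its own transcripts. In whole leaves, more cells of a type and more RNA per cell cannot be told apart. One gene can also give rise to several transcripts that differ in their start, splicing or end, so a gene total can rise through 1 of its transcripts or through all of them. The files leave the gene names empty. The RefSeq gene table for B73 holds no ID of this form for any gene, so 0 of the 100 could be found there. The genes are therefore given by ID, no role or position is stated for any of them, and the leaf label could not be checked against marker genes.

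The 100 genes spanned low to very high expression. Their WT means ran from 0.11 to 355 FPKM with a median of 4.98, close to the median of 5.49 FPKM over all tested genes. Their edf1-D means ran from 5.44 to 960.0 FPKM with a median of 18.4, where all tested genes had a median of 4.85. The rule required a mean of 5 FPKM in edf1-D, so a median above that of all tested genes follows from it. In WT, 11 genes averaged under 1 FPKM, 40 lay from 1 to under 5, 31 from 5 to under 20, 14 from 20 to under 100, and 4 at 100 FPKM or more. In edf1-D, 28 lay from 5 to under 10 FPKM, 37 from 10 to under 30, 21 from 30 to under 100, and 14 at 100 FPKM or more.

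**Figure D1:**
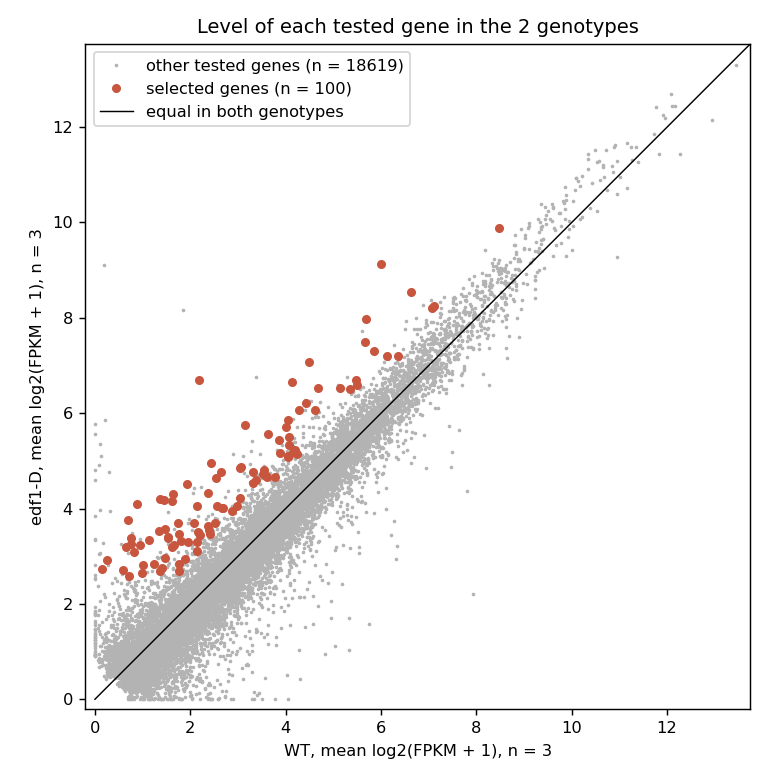
Mean log2(FPKM + 1) of each tested gene in WT (x axis) and edf1-D (y axis), with 3 libraries per genotype. The 100 selected genes (red) lie above the line of equal levels, from a WT mean of 0.11 to one of 355 FPKM, and some grey points lie as far above it because the rule left them out.

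The size of the difference was most often between 2-fold and 5-fold. The ratio of mean FPKM in edf1-D to that in WT had a median of 3.47 and ran from 1.81 to 51.6. It was at least 2 in 97 genes, at least 4 in 36, at least 8 in 17 and at least 20 in 4. Even the lowest edf1-D library stood at 1.61 to 33.3 times the highest WT library, and at 2 times or more in 60 genes. On the log2(FPKM + 1) scale the median difference was 1.58, while all tested genes had a median of -0.12, so the selected genes stood 1.69 above the general level.

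Together the 100 genes made up 0.352% ± 0.00982 of all FPKM in WT libraries and 1.04% ± 0.0717 in edf1-D libraries (SD, n = 3 each). Their summed level was 2168, 1923 and 1491 FPKM in WT replicates 1 to 3 and 5987, 6539 and 5055 FPKM in edf1-D replicates 1 to 3. All edf1-D libraries thus lay above all WT libraries, which follows from the choice of genes. The lower sums of WT replicate 3 and edf1-D replicate 3 went with the lowest totals over all genes, 416517 and 472269 FPKM, where the other 4 libraries held 552924 to 686251.

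**Figure D2:**
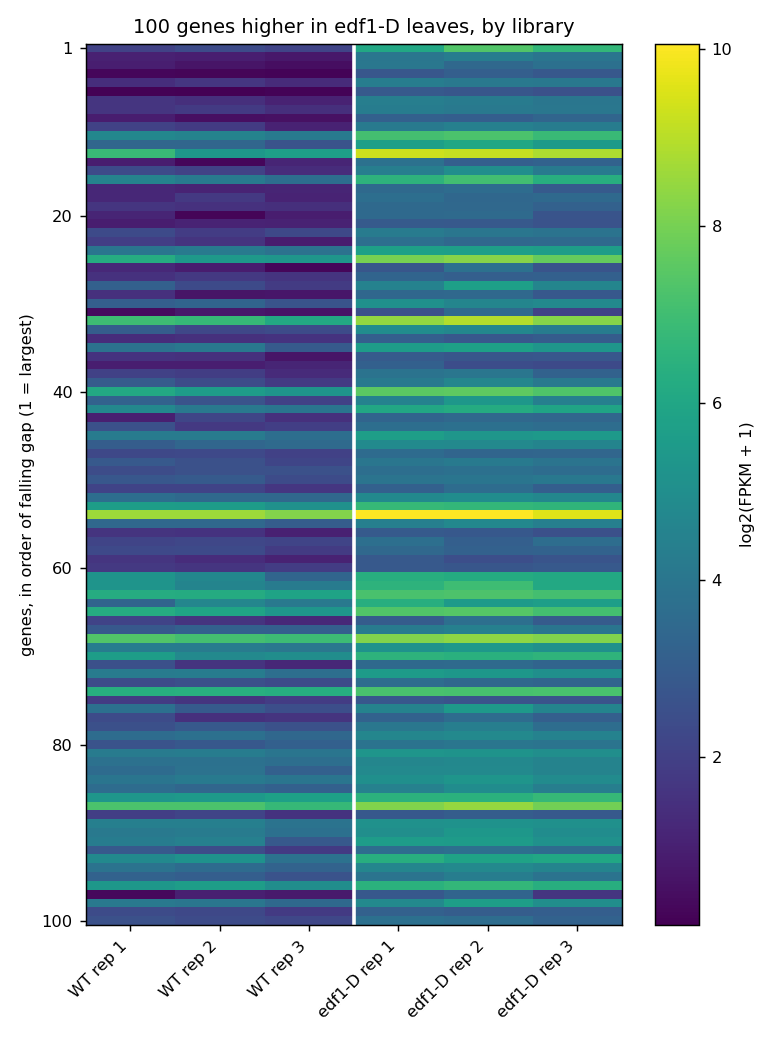
Level of the 100 genes (rows, in order of falling gap) in the 6 libraries (columns), as log2(FPKM + 1) in colour. The white line parts WT from edf1-D; every row is brighter in all 3 edf1-D libraries than in any WT library, and the brightest row, Zm00001eb320890, reaches 1068 FPKM.

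The widest gap belonged to Zm00001eb121770, a gene with 1 annotated transcript. It stood at 3.18, 4.16 and 3.36 FPKM in WT replicates 1 to 3 and at 65.6, 162 and 103.3 FPKM in edf1-D replicates 1 to 3. The WT libraries lay close together, while edf1-D replicate 2 held more than double the level of replicate 1. The mean was 3.57 ± 0.522 FPKM in WT and 110.3 ± 48.6 in edf1-D (SD, n = 3 each), a 30.9-fold difference.

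Several genes went from near the limit of listing in WT to a moderate level in edf1-D. Zm00001eb399090, with 4 annotated transcripts, had the highest ratio of all, 51.6-fold. It stood at 0.11, 0.07 and 0.15 FPKM in WT and at 6.30, 5.75 and 4.99 FPKM in edf1-D. Zm00001eb220500 was similar, with 0.21, 0.19 and 0.16 FPKM in WT and 5.96, 7.62 and 6.11 FPKM in edf1-D, 35.2-fold apart. The libraries of each genotype lay close together in Zm00001eb220500, as did the edf1-D libraries in Zm00001eb399090. In WT the highest value of Zm00001eb399090 was 2.14 times its lowest. Since such WT values are close to 0, the exact ratio of these low genes is uncertain.

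Zm00001eb010420, with 5 annotated transcripts, had 1.01, 0.90 and 0.65 FPKM in WT and 15.2, 18.9 and 14.5 FPKM in edf1-D, 18.96-fold apart. Zm00001eb159320 had 0.93, 0.57 and 0.37 FPKM in WT and 15.6, 10.2 and 12.5 FPKM in edf1-D, 20.5-fold apart. Zm00001eb410490 had 0.86, 0.42 and 0.47 FPKM in WT and 7.89, 7.38 and 9.06 FPKM in edf1-D, 13.9-fold apart. All 3 thus averaged under 1 FPKM in WT. The 11 genes of that kind had WT values of 0.07 to 1.40 FPKM, edf1-D values of 2.11 to 18.9 FPKM and ratios of 5.49 to 51.6. The required mean of 5 FPKM in edf1-D by itself puts their ratios above 5.

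The remaining genes with the 10 widest gaps were already at 1 FPKM or more in every WT library. Zm00001eb295370, with 8 annotated transcripts, stood at 1.62, 2.15 and 1.49 FPKM in WT and at 18.9, 16.6 and 15.8 FPKM in edf1-D, 9.75-fold apart. Zm00001eb367740 stood at 2.08, 1.68 and 1.09 FPKM in WT and at 19.6, 18.1 and 15.04 FPKM in edf1-D, 10.9-fold apart. Within each genotype, both genes stood at nearly the same levels. Zm00001eb421250 had 2.10, 2.43 and 1.68 FPKM in WT and 18.5, 16.5 and 15.4 FPKM in edf1-D, 8.11-fold apart. Zm00001eb219530 had 3.16, 2.55 and 1.07 FPKM in WT and 17.3, 20.7 and 18.4 FPKM in edf1-D, 8.32-fold apart. Its WT replicate 3 lay well below the other WT libraries.

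**Figure D3:**
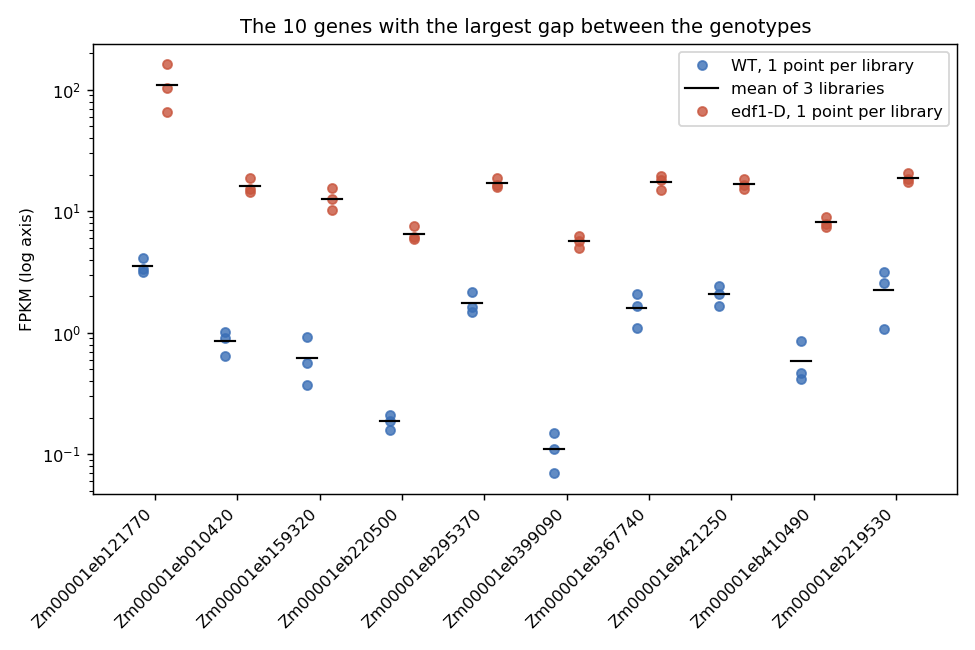
FPKM (log axis) of the 10 genes with the largest gap, in order from left to right, with 1 point per library and a bar at the mean of 3. In each gene the WT points (blue) and edf1-D points (red) are far apart; edf1-D levels lie between 4.99 and 20.7 FPKM except in Zm00001eb121770, which reaches 162 FPKM.

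Abundant genes differed too, by smaller ratios on the whole. The 18 genes with a WT mean of 20 FPKM or more had a median ratio of 2.66, and ran from 1.81 to 8.06. The most abundant was Zm00001eb320890, with 388, 386 and 293 FPKM in WT and 1052, 1068 and 761 FPKM in edf1-D, 2.70-fold apart. The third replicate was the lowest in both genotypes.

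Zm00001eb161410 gave the highest ratio of these 18 genes, 8.06-fold. It stood at 115.5, 40.5 and 52.3 FPKM in WT and at 630.3, 587 and 461 FPKM in edf1-D. WT replicate 1 was more than double the other WT libraries, yet stayed far below every edf1-D library. Zm00001eb295180 had 123.9, 107.9 and 69.0 FPKM in WT and 350.3, 478 and 301 FPKM in edf1-D, 3.75-fold apart. Here edf1-D replicate 2 and WT replicate 1 were the highest of their genotypes.

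The other genes with the highest WT means differed by just over 2-fold. Zm00001eb410930 had 162, 134.1 and 119.2 FPKM in WT and 286, 333 and 288 FPKM in edf1-D, 2.18-fold apart. Zm00001eb010370 had 151.0, 148.2 and 107.7 FPKM in WT and 284, 359 and 248 FPKM in edf1-D, 2.19-fold apart. Their replicates spread by less than the difference between the genotypes.

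Near the limit of 100 the choice was fine. The last genes inside were Zm00001eb055810, Zm00001eb399370 and Zm00001eb087570, with edf1-D to WT ratios of 2.58, 2.19 and 2.55. The first genes outside were Zm00001eb170080, Zm00001eb204010 and Zm00001eb224040, with ratios of 3.53, 1.85 and 2.47. The gap of the last gene inside was 0.665 and that of the first outside 0.664, so membership at this edge turned on the third decimal. Zm00001eb170080, just outside, had 11.8, 14.96 and 2.19 FPKM in WT and 36.5, 24.3 and 41.4 FPKM in edf1-D, so the spread within genotypes rather than its mean kept it out.

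In a fit across all tested genes (limma on log2(FPKM + 1), Benjamini-Hochberg adjusted p under 0.05), 96 of the 100 genes were called higher, beside 1.45% of all tested genes called higher and 3.64% called in either direction. As the genes were chosen on this contrast, nothing is read from that count. It fell to 41 without edf1-D replicate 1, to 52 without WT replicate 2, to 58 without edf1-D replicate 3, and to 62 with no filter on low values. The 4 genes not called had edf1-D to WT ratios of 2.19 to 3.11. One of them, Zm00001eb004680, had 36.9, 25.1 and 9.27 FPKM in WT against 80.7, 73.3 and 67.6 FPKM in edf1-D, with a wide spread in WT.

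The genes varied less among edf1-D libraries than among WT libraries. The median SD of log2(FPKM + 1) over 3 libraries was 0.187 in edf1-D and 0.287 in WT. Tested genes of the same mean level had 0.226 and 0.279. The gap favours genes with little spread, so these values are descriptions. The highest library was at least double the lowest in 5 genes within edf1-D and in 32 genes within WT.

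The steadiest gene in edf1-D was Zm00001eb065340, at 146, 143 and 148 FPKM, after 80.7, 83.5 and 77.3 FPKM in WT. Its 1.81-fold ratio was the smallest of the 100. Zm00001eb406820 came next, with 34.4, 35.5 and 33.5 FPKM in edf1-D against 20.2, 20.01 and 13.9 FPKM in WT. Both thus entered the set without a large ratio. In Zm00001eb065340 the spread was small in both genotypes. In Zm00001eb406820 it was small in edf1-D, while the SD of log2(FPKM + 1) in WT was 0.287, as in the median of the 100 genes.

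At the other end, Zm00001eb154540 had 6.12, 8.86 and 2.11 FPKM in edf1-D against 0.28, 0.95 and 0.74 FPKM in WT. Zm00001eb413860 had 4.90, 10.6 and 3.07 FPKM in edf1-D against 0.32, 0.67 and 0.56 FPKM in WT. In both, edf1-D replicate 2 was the highest and replicate 3 the lowest.

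Which library was highest differed between these genes and the 8776 eligible ones. WT replicate 1 was the highest WT library in 56 of the 100 genes, and in 35.4% of eligible genes. WT replicate 2 was highest in 35 genes, and in 62.4% of eligible genes. WT replicate 1 exceeded both other WT libraries by 1.5 times or more in 18 of the 100 genes, beside 5.57% of eligible genes, and WT replicate 3 lay as far below both others in 24, beside 13.3%. In edf1-D, replicate 2 was highest in 56 genes (72.2% of eligible genes) and replicate 1 in 39 (25.0%). Since the rule takes the highest WT and lowest edf1-D value, these shares are not independent of it, and were not tested.

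In 9 of the 100 genes edf1-D replicate 2 exceeded both other edf1-D libraries by 1.5 times or more, close to the 10.6% of eligible genes that did so. Zm00001eb061400 is an example, with 7.89, 4.08 and 2.55 FPKM in WT and 21.8, 51.1 and 23.9 FPKM in edf1-D. In Zm00001eb043810 the values were 8.46, 5.31 and 3.11 FPKM in WT and 21.8, 40.4 and 20.3 FPKM in edf1-D. The highest edf1-D library was 2.35 and 1.99 times the lowest in these genes, and the highest WT library 3.09 and 2.72 times the lowest.

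The transcripts of a gene were not part of the choice beyond their sum. Of the 100 genes 53 have 1 annotated transcript and 47 have 2 or more, up to 8. Single-transcript genes thus made up 53.0%, beside 38.2% of eligible genes and 42.8% of all tested genes. The 47 genes with several transcripts list 152 of them, of which 22 were at 0 in every library. Of the other 130, 116 had a higher mean in edf1-D and 14 a lower one, and of the 81 with at least 1 FPKM in either genotype 3 had a lower mean in edf1-D. The sums were chosen to be higher in edf1-D, so that most transcripts were higher follows from the choice of genes. One transcript carried at least 80% of the rise of its gene in 32 of the 47. For the counts of higher and lower transcripts and of this rise, no share over eligible genes was taken.

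The same transcript led in all 6 libraries in 36 of the 47 genes, 76.6%, beside 85.4% of the 5422 eligible genes with several transcripts. In 1 gene, Zm00001eb418980, the leading transcript switched cleanly with genotype, and 10 showed other patterns. Zm00001eb418980 is also 1 of the 20 genes whose shares were tested as given next, where 1.12% of all 2671 genes tested switched in this way. Assigning short reads to transcripts leaves such shares less certain than gene totals. In genes near 0 in WT the lead can also turn on small values. In Zm00001eb010420, WT replicate 3 held 0.63 FPKM in T001 and 0.02 FPKM in T002. The 76.6% was not set beside eligible genes of like WT level.

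Transcript shares were tested where a gene averaged at least 5 FPKM and reached 1 FPKM in every library, as the log2 ratio of each transcript to the sum of the rest after adding 1 FPKM to each side. Transcripts had to hold a mean share of 10% to 90%. These limits left 20 of the 47 genes, with 46 transcripts. Means were taken over all 6 libraries, so some of these genes met the 5 FPKM only through edf1-D. Zm00001eb159210, for example, averaged 1.89 FPKM in WT and 9.55 FPKM in edf1-D. In 2 of these 20 genes the share of at least 1 transcript differed between the genotypes (limma, adjusted p under 0.05), in 3 transcripts. Over all those tested, 1.16% of the 2671 genes and 0.904% of the 5643 transcripts did so. Zm00001eb333340, 1 of the 2 genes, was called on a transcript listed at 0 in WT, which met the 10% only through edf1-D. Nothing is therefore read from the count. The added 1 pulls the shares of low genes towards equal, so this measure depends partly on the gene total. With the percent share itself in its place, an alternative chosen after seeing the data, the same 2 genes were called. Without WT replicate 2 only Zm00001eb333340 was called. With a replicate block, given further below, neither of the 2 genes was called.

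In Zm00001eb418980 the rise ran through 1 of 6 annotated transcripts. Transcript T006 stood at 6.97, 7.20 and 6.37 FPKM in WT and at 44.0, 42.3 and 43.0 FPKM in edf1-D. Transcript T001 stood at 7.43, 10.2 and 7.25 FPKM in WT and at 8.05, 8.09 and 5.86 FPKM in edf1-D. The levels of T006 were thus far apart, while those of T001 overlapped between genotypes.

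The share of T006 in the gene total was 45.3% ± 3.83 in WT and 83.9% ± 2.66 in edf1-D (SD, n = 3 each), and that of T001 went from 54.2% ± 3.41 to 14.2% ± 2.08. The log2 ratio of T006 to the other transcripts differed by 2.504 ± 0.25 (SE, limma adjusted p = 0.0091). For T001 it differed by -2.66 ± 0.25 (SE, limma adjusted p = 0.0062). Without WT replicate 2 these adjusted p-values of the limma fit were 0.063 and 0.052. T006 was also lost without WT replicate 3, edf1-D replicate 1 or edf1-D replicate 3, with limma adjusted p-values of 0.053, 0.056 and 0.051. The gene total went from 14.5, 17.6 and 13.6 FPKM in WT to 53.3, 51.4 and 49.4 FPKM in edf1-D.

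In Zm00001eb333340 a transcript appeared in edf1-D that was listed at 0 in WT. Transcript T002 was listed at 0 in all 3 WT libraries and stood at 10.1, 9.89 and 10.04 FPKM in edf1-D, 41.4% ± 3.06 of the gene total there (SD, n = 3). Its log2 ratio to the other transcripts differed by 3.32 ± 0.24 (SE, limma adjusted p = 0.0025), a size that the added 1 sets.

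Transcript T007 of this gene moved the other way, from 3.30, 3.52 and 6.41 FPKM in WT to 0, 0 and 0.75 FPKM in edf1-D, and missed the threshold (limma adjusted p = 0.054). The gene total was 13.1, 13.2 and 12.1 FPKM in WT and 24.4, 25.8 and 22.6 FPKM in edf1-D, a 1.90-fold ratio.

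**Figure D4:**
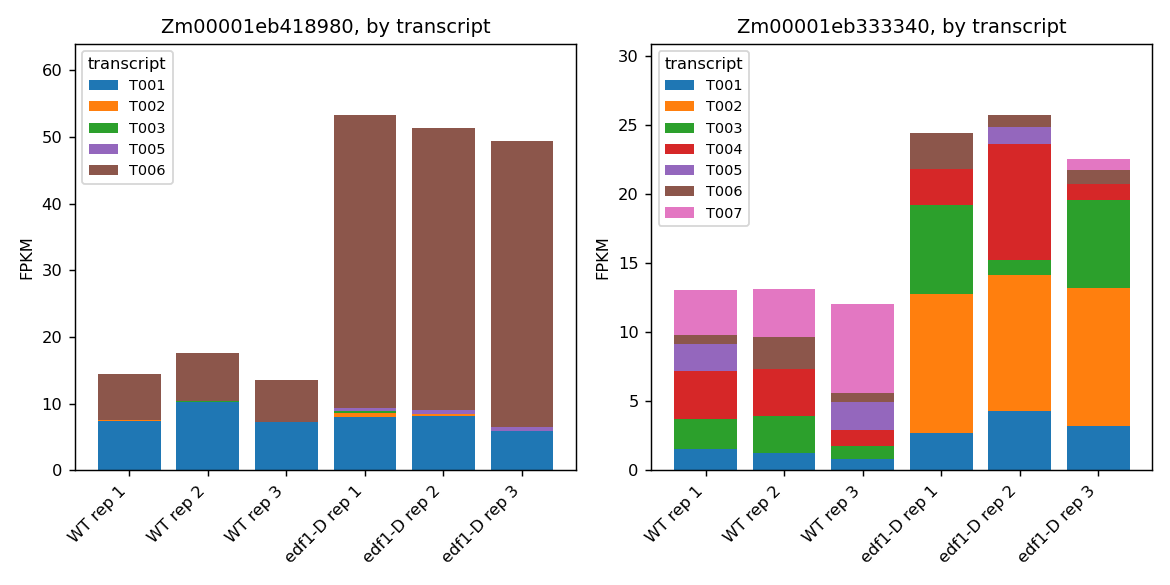
FPKM of each annotated transcript, stacked by library, for Zm00001eb418980 (left) and Zm00001eb333340 (right). On the left T006 (brown) grows from about 7 to over 42 FPKM while T001 (blue) stays between 5.86 and 10.2 FPKM; on the right T002 (orange) is listed at 0 in WT and at 9.89 to 10.1 FPKM in edf1-D, and T007 (pink) goes from 3.30 to 6.41 FPKM in WT to at most 0.75 FPKM in edf1-D.

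In other genes the shares differed in the means but did not pass. Zm00001eb388340 had 2.08% ± 3.61 of its level in transcript T005 in WT and 33.0% ± 9.47 in edf1-D (SD, n = 3 each; limma adjusted p = 0.12). This transcript met the mean share of 10% only through edf1-D. Zm00001eb295370 had 18.4% ± 2.77 in T001 in WT and 9.84% ± 3.11 in edf1-D (SD, n = 3 each; limma adjusted p = 0.054). Of the 46 transcripts, 14 (30.4%) were at an unadjusted limma p under 0.05, beside 9.75% of all transcripts tested. By percent share they were 12 (26.1%), beside 9.53%. Shares within a gene are not independent, since a share that rises lowers the rest. Counted by gene, the 14 transcripts lay in 8 of the 20 genes, beside 12.9% of all genes tested. Some of the 20 genes passed the filter only through edf1-D and have low WT totals, so nothing is read from these shares.

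In the highest-ranked genes with several transcripts, Zm00001eb010420 rose almost wholly through T002, at 1.01, 0.90 and 0.02 FPKM in WT and at 14.2, 17.7 and 13.6 FPKM in edf1-D. Zm00001eb295370 was spread over several, with 54.1% of the rise in T007 and 34.7% in T005. In Zm00001eb399090 the rise was shared by T003 (44.5%) and T004 (46.4%), and T003 was listed at 0 in every WT library.

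The selected genes lay in all parts of the order of gene IDs, and some lay close together. Ranks are places among the tested genes sorted by ID. Whether IDs follow the chromosomes was not checked. Of the 100 genes 25 had another of the 100 within 10 places, where genes lay 179 eligible places apart on average. They formed 12 groups, 11 of them pairs and 1 of 3 genes. With 50 places the number was 49, and for immediate neighbours 4. The densest window of 200 tested genes held 8 of the 100, from Zm00001eb219530 to Zm00001eb223820, where such windows held 1.07 on average. The same window held 14 genes called higher and 18 called lower by limma, so genes lower in edf1-D lay there too. The 817 genes left out by place could not be among the 100. Of these, 41 had a gap at least as large as that of the last gene kept. The window named above is the densest for the 100 genes only, and windows in the stretches left out were not counted.

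**Figure D5:**
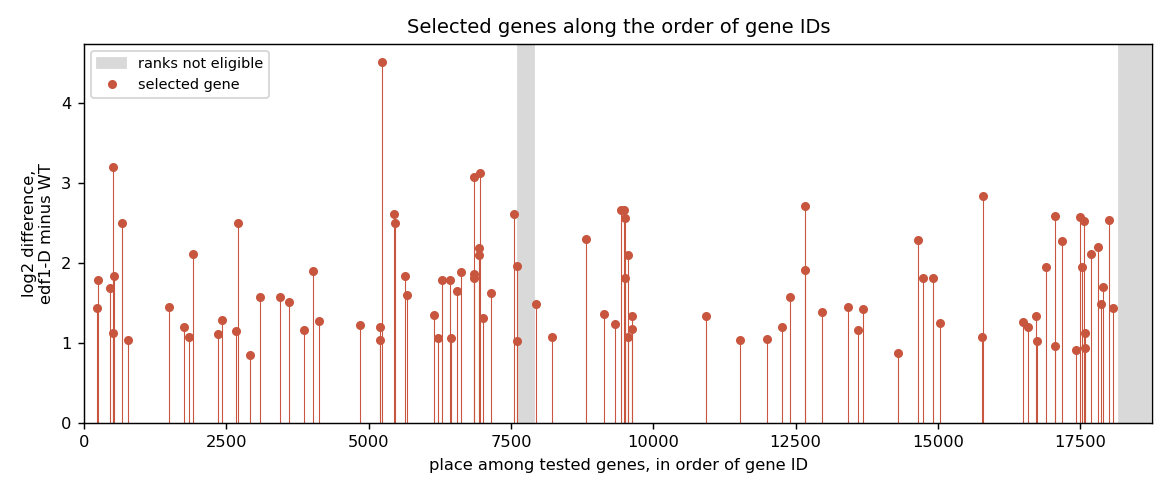
Place of the 100 genes among tested genes in the order of gene ID (x axis) and their difference in log2(FPKM + 1), edf1-D minus WT (y axis). Grey bands were not eligible; genes lie along the whole order, with closer sets near ranks 6944 and 9494, and the tallest line is Zm00001eb121770 at 4.52.

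The group of 3 was Zm00001eb161370, Zm00001eb161390 and Zm00001eb161410, at ranks 6944 to 6947. Zm00001eb161370 had 2.87, 2.05 and 0.81 FPKM in WT and 12.4, 10.04 and 10.4 FPKM in edf1-D. Zm00001eb161390 had 1.31, 2.33 and 1.14 FPKM in WT and 11.98, 9.69 and 10.3 FPKM in edf1-D. The levels of these neighbours were alike in edf1-D, while Zm00001eb161410, given above, was far more abundant. The 1 other tested gene of this stretch, Zm00001eb161400, was listed at 0 in WT and at 7.15, 1.19 and 2.11 FPKM in edf1-D, and so was not eligible. It did not pass the limma threshold (adjusted p = 0.053). Reads of near-identical copies can be split between IDs, and whether these genes are copies is not known from the files.

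The other pair of immediate neighbours was Zm00001eb004670 and Zm00001eb004680. Zm00001eb004670 had 18.1, 17.7 and 12.1 FPKM in WT and 51.0, 39.4 and 43.2 FPKM in edf1-D. Both were lowest in WT replicate 3.

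Abundant genes lay close together as well. Zm00001eb220820 had 25.4, 22.6 and 17.5 FPKM in WT and 135.1, 150.4 and 115.1 FPKM in edf1-D. Zm00001eb220940 had 68.8, 48.3 and 37.3 FPKM in WT and 185.9, 193.7 and 156.4 FPKM in edf1-D. In both, WT replicate 1 was the highest WT library and edf1-D replicate 2 the highest edf1-D library. None of the 7 tested genes between them passed the limma threshold.

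Zm00001eb121120 and Zm00001eb121240 were alike in level. The former had 11.4, 12.6 and 9.75 FPKM in WT and 24.6, 26.3 and 21.7 FPKM in edf1-D. The latter had 9.91, 10.1 and 7.28 FPKM in WT and 20.3, 25.9 and 20.3 FPKM in edf1-D. Again no tested gene between them passed.

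In the pair Zm00001eb295180 and Zm00001eb295370 the genes between went in both directions. Zm00001eb295310 rose from 0.43, 0 and 0.23 FPKM in WT to 2.28, 2.73 and 2.07 FPKM in edf1-D (limma adjusted p = 0.0071). Zm00001eb295330 fell from 1.63, 2.03 and 1.28 FPKM in WT to a listing at 0 in all edf1-D libraries (limma adjusted p = 0.0053). Between Zm00001eb176810 and Zm00001eb177260, Zm00001eb176850 fell from 32.1, 35.2 and 28.8 FPKM in WT to 8.14, 8.89 and 6.58 FPKM in edf1-D (limma adjusted p = 0.0014).

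The rule also left out genes with as wide a difference. Of all tested genes 238 had a gap at least as large as that of the last gene kept. Of the 138 not kept, 41 lay in the stretches of the ID order that were not eligible, whatever their values. Outside these stretches, 67 had a value of 0 in some library, and a further 30 had no 0 but averaged under 5 FPKM in edf1-D. The 100 genes are therefore not the full set of differences this wide. Among genes lower in edf1-D, 146 met the mirror of the rule at the same gap, with a mean of 5 FPKM in WT.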

How the data were processed

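RNA of 3 WT and 3 edf1-D leaf libraries was compared. The submitters' processing notes list HISAT2, RSEM, DESeq2 and Trimmomatic 0.36 but give no role for any; build and strand setting are not given in the sources used here. The deposited tables hold 1 value for each of 77341 transcripts, read as FPKM because they carry decimals and their sums differ between libraries; no header states the unit. Reads per library are unknown: low values showed no clear step of single reads (at best 18.3% to 19.1% of ratios between libraries on small whole-number ratios, within 0.01 in natural log, against 14.5% to 14.7% typically), so no interval or floor is given.

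Transcript values were added up per gene. Genes reaching 0.5 FPKM in 3 or more libraries were fitted with limma 3.58.1 (intensity trend, R 4.3.3) on log2(FPKM + 1), edf1-D minus WT, without covariates, two-sided, with Benjamini-Hochberg adjustment over all tested genes. Transcript shares were fitted likewise for transcripts that held 10% to 90% of their gene on average. Both fits were run on simulated data with normal spread on the log scale. Those data had no selection by the gap and no values fixed at 0, so they do not bear on either. Replicates may share plants, so p-values reflect only how these libraries vary, and that variation may be technical.

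The members, lists and tests were chosen with earlier results of these data known. Genes are given by ID by a written rule: the 10 widest gaps, the 3 highest means in each genotype, 3 genes either side of the limit, the 2 steadiest and 2 most variable in edf1-D, those with a called transcript share, and runs of neighbours. Others were chosen after their values were seen: Zm00001eb061400, Zm00001eb043810, Zm00001eb388340 and all genes that are not among the 100 or next to its limit, as well as the pairs of close IDs beyond immediate neighbours. Alternatives were the pseudocount, the scaling, the filter, robust variances, a replicate block, each library left out, and changes of the rule. Sequences were not used here.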

Additional observations from a re-analysis of the deposited data

How the results depend on the processing

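All tested genes gave 681 calls (271 higher, 410 lower). With TPM rescaling there were 2130 (28.0% of them higher, against 39.8%), with median-ratio scaling 2185 (57.0%), with upper-quartile scaling 2218 (48.7%), with quantile normalization 2054 (49.3%) and with no filter 418. Leaving out 1 library gave 292 to 545. The 100 genes were called in 96 cases, in 62 with no filter, and in 41 to 75 with 1 library left out; other settings gave 93 to 100. Their median log2 difference, 1.58, ran from 1.39 to 1.65 with 1 library left out and reached 1.83 with a pseudocount of 0.1; relative to all genes it was 1.69 to 1.82 under the scalings. Choosing by the difference of the means kept 64 of the 100 genes, leaving out 1 library kept 69 to 97, and TPM rescaling kept 77. Leaving in all ranks kept 80. The 2 genes with a changed transcript share became 1 to 3 with 1 library left out. The 25 genes with a neighbour within 10 places were 4 for immediate neighbours and 49 within 50 places. For all of these, the cause was not tested.

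The replicate numbers were not taken to pair the libraries: the 3 same-numbered pairs had deviation correlations of -0.19, -0.01 and 0.35. Replicate 3 was nevertheless the lowest library of both genotypes in 48.7% of tested genes, so a shared effect of the number was not excluded. With a replicate block there were 951 calls (360 higher, 591 lower), 93 of the 100 genes, and 0 genes with a changed transcript share by limma (adjusted p 0.067 for Zm00001eb333340 T002, 0.099 and 0.11 for Zm00001eb418980 T001 and T006), with 13 of 46 transcripts at an unadjusted p under 0.05. Of 420 values for 28 genes given by ID under 15 alternatives, 61 lost and 13 gained the threshold and 0 changed direction, which the absence of overlap fixes when a library is left out. The unknown depth limits values near 0.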

Other observations

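Some genes listed at 0 in a WT library, which kept them out of the 100, had wider gaps than any gene in it. They were chosen here after their values were seen. Zm00001eb382460 was listed at 0, 0.48 and 0 FPKM in WT and stood at 625.9, 516.2 and 510.9 FPKM in edf1-D. Zm00001eb176090 was listed at 0 in all WT libraries and stood at 47.7, 52.4 and 40.1 FPKM in edf1-D. Zm00001eb275480 was listed at 0 in all WT libraries and stood at 52.5, 73.2 and 39.9 FPKM in edf1-D.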
